A study of Mus musculus with 16 samples.

Results

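The 39 Hox genes of the mouse were followed through 8 cell fractions sorted from embryonic day 14.5 skin. The members are all rows of the deposited expression table whose symbol is Hoxa, Hoxb, Hoxc or Hoxd followed by a paralog number, 39 of 23235 rows. The table gives FPKM, fragments per kilobase of transcript scaled to the mapped fragments of a library, for 16 RNA-seq libraries, 2 per fraction. The labels call the fractions DC, Fb, Mc, Sch, DCSch, Neg, Pc and Epi and do not spell the codes out. They are read here as dermal condensate (DC), dermal fibroblast (Fb), melanocyte (Mc), Schwann cell (Sch), condensate with Schwann cells (DCSch), a negative remainder (Neg), hair placode (Pc) and epidermis (Epi). Each code except Neg was borne out by marker genes of that cell type, given below. All groups come from the same stage and tissue, and the labels name no genotype or treatment difference between them. The labels do not say whether the 2 libraries of a fraction came from separate embryos or litters, so p-values measure the spread between these libraries, which may be technical.

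Hox genes encode homeodomain transcription factors that sit in 4 clusters, HoxA to HoxD. Within a cluster, genes at the 3′ end (low paralog numbers) are used from the hindbrain backwards and genes at the 5′ end (high paralog numbers) in more posterior parts of the trunk, limbs and tail. The set of Hox genes a cell keeps is a record of its position along the body axis, and skin fibroblasts are known to hold such a positional code into adulthood. Skin combines ectoderm (epidermis and placode), mesoderm (dermis) and neural crest (melanocytes and Schwann cells), so the 8 fractions set the codes of different germ layers side by side.

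In the mm10 coordinates of the table, the 11 HoxA genes lie on chromosome 6, and the 10 HoxB genes on chromosome 11 from 96194361 to 96368253. The 9 HoxC genes lie on chromosome 15 from 102921131 to 103036852, and the 9 HoxD genes on chromosome 2 from 74668310 to 74765142. The table gives some genes 1 merged locus: Hoxa3, Hoxa4, Hoxa5 and Hoxa6 share theirs with 2700086A05Rik, Hoxa11 with its antisense gene Hoxa11as, Hoxc5 with the microRNA Mir615, and Hoxd3 and Hoxd4 with 1700109F18Rik. Strand-aware counting is not stated in the sources used here, so reads of overlapping transcripts could not be told apart for these genes.

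Of the 39 members, 31 reached 1 FPKM in at least 2 libraries and were tested. The other 8 were at most 0.547 FPKM in any library: Hoxa13, Hoxc11 and Hoxd12 were listed at 0 in all 16 libraries, and Hoxb1, Hoxb13, Hoxc12, Hoxd11 and Hoxd13 had low values. These include the most 5′ genes of HoxA, HoxB and HoxD, which pattern digits, genital tubercle and tail. A member passes this filter through the fraction where it is high, so counts among the 31 are read against the share of all 14171 tested rows called in the same direction.

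Differences between fractions are on the log2(FPKM + 1) scale, which understates the change of low genes. They were tested with limma across all rows, and a gene is called at a Benjamini-Hochberg adjusted p under 0.05 with a log2 difference of at least 1 in size. In these sorted bulk samples, fewer cells of a type and less RNA per cell cannot be told apart.

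The libraries summed to between 439200 and 606400 FPKM, with 11273 to 12137 rows at 1 FPKM or more. Markers named the fractions. The 7 melanocyte genes summed to 6629 and 5047 FPKM in Mc and to at most 244.9 FPKM elsewhere, and the 8 Schwann genes to 1917 and 2085 FPKM in Sch. The 5 condensate genes summed to 2190 and 1189 FPKM in DC, against 42.69 and 38.86 FPKM in Fb. The 5 placode genes summed to 89.74 and 74.56 FPKM in Pc, against 35.82 and 25.77 FPKM in Epi, so the pair is separated less widely by its own markers. Neg held blood, vessel and muscle genes: globin rows at 32000 and 34820 FPKM, 4 muscle genes at 215.2 and 166.5 FPKM and 4 endothelial genes at 293.6 and 209.7 FPKM. The crest fractions carried markers of other cells. The 10 epidermal genes summed to 858.6 and 528.5 FPKM in Mc and 340.8 and 55.35 FPKM in Sch, against 4091 to 6714 FPKM in Pc and Epi. Of the Mc sums, Cdh1, a cell adhesion gene, made up 223.9 and 235.6 FPKM, against 252.0 and 240.7 FPKM in Epi, and the other 9 genes summed to 634.7 and 292.9 FPKM in Mc, against 6462 and 5344 FPKM in Epi. The 10 fibroblast genes summed to 563.8 and 361.1 FPKM in Mc and 1367 and 1524 FPKM in Sch, against 9695 and 8683 FPKM in Fb. Postn, a matrix gene, made up 720.4 and 1009 FPKM of the Sch sums, above its 431.6 and 602.2 FPKM in Fb. Without it the other 9 summed to 647 and 515.4 FPKM in Sch, against 9264 and 8081 FPKM in Fb. Cdh1 and Postn were singled out after their values were seen. All 10 fibroblast genes were at 1 FPKM or more in both crest fractions, and 10 epidermal genes in Mc and 9 in Sch. The 4 neuron genes summed to 39.43 and 55.63 FPKM in Mc and 29.67 and 31.55 FPKM in Sch. They summed to 20.26 and 23.06 FPKM in Neg and to between 0.2652 and 2.322 FPKM in Fb, Pc and Epi. Tubb3 made up 37.53 and 52.37 FPKM of the Mc sums and 20.27 and 17.38 FPKM of the Sch sums. Isl1 made up 17.40 and 20.44 FPKM of the Neg sums. Tubb3 and Isl1 were also singled out after their values were seen. Of the 4 neuron genes, 2 were at 1 FPKM or more in both Mc libraries and 3 in both Sch libraries. The part of these other cells in the Hox values of the crest was not tested.

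The fractions differed in their balance of clusters. DC and Fb were led by HoxC, which held 60.86% and 61.61% of their summed Hox FPKM. Pc and Epi were led by HoxA, with 44.17% and 50.75%, and Sch was led by HoxB, with 61.23%. Mc did not share the balance of Sch: HoxA held 33.86% of its Hox FPKM, HoxC 29.16% and HoxB 26.57%. In sums, HoxA reached 5.272 ± 1.882 FPKM in DC and 20.34 ± 2.8 FPKM in Fb, against 114.1 ± 14.85 FPKM in Pc and 101.6 ± 3.267 FPKM in Epi (SD, n = 2 libraries each). HoxD went the other way, at 66.44 FPKM in DC and 52.25 FPKM in Fb, with 4.085 FPKM in Pc and 2.396 FPKM in Epi. The melanocyte fraction had the lowest Hox level of the 8, with all clusters together at 50.22 and 28.65 FPKM in its 2 libraries.

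**Figure D1:**
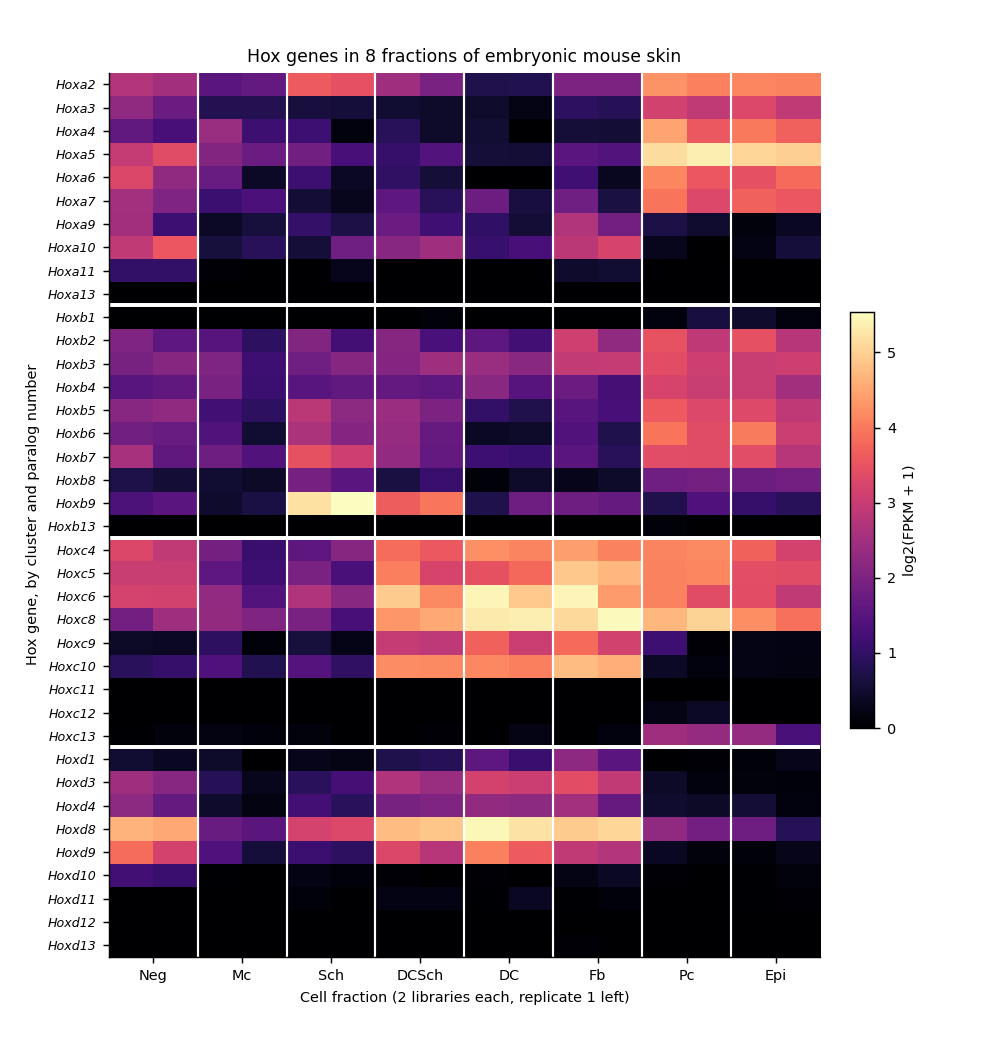
Heat map of the Hox genes described here in each of the 16 libraries, as log2(FPKM + 1), with genes down the page by cluster and paralog number and fractions across from Neg to Epi, each with its 2 libraries side by side. HoxA and HoxB genes of low and middle paralog number are high in Pc and Epi, HoxC and HoxD genes are high in DC and Fb, and Hoxb9 is high in Sch.

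**Figure D2:**
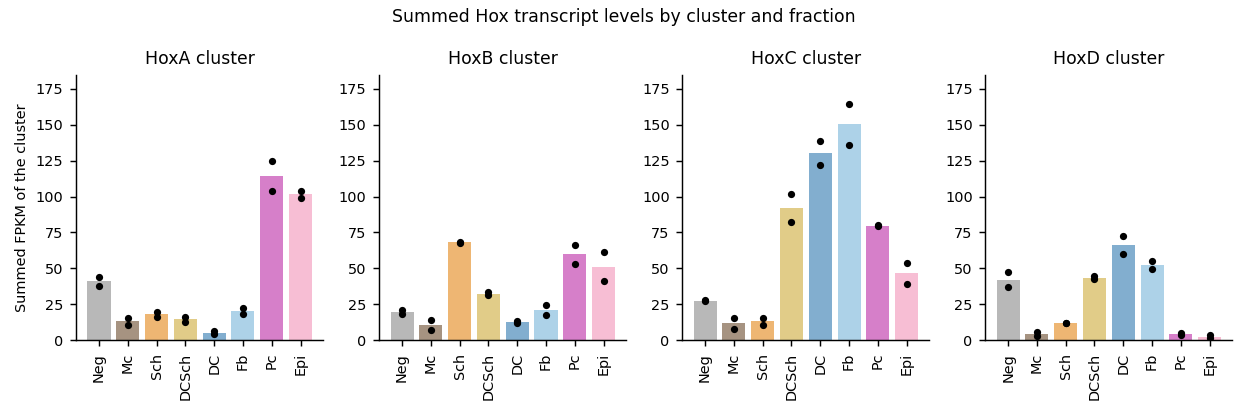
Summed FPKM of each Hox cluster in each fraction; bars are means of 2 libraries and points are the libraries. HoxA is highest in Pc (114.1 FPKM) and Epi (101.6 FPKM), HoxC in Fb (150.4 FPKM) and DC (130.3 FPKM), HoxB in Sch (68.11 FPKM) and HoxD in DC (66.44 FPKM).

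The codes also ended at different paralog numbers. A gene is called detected here where both libraries of a fraction reached 1 FPKM. Pc held 20 such genes and Epi 19, Fb 20, DC 16, DCSch 21, Sch 15, Mc 12 and Neg 25. That is between 30.77% of the Hox genes in Mc and 64.1% in Neg, while 47.34% to 49.77% of all rows were detected in each fraction. Without Mc replicate 2, which had the lower Hox sum, Mc held 19. The epidermal fractions stopped at Hoxa7 in HoxA and Hoxb8 in HoxB, and then held the most 5′ HoxC gene, Hoxc13. The end in HoxB depends on the threshold, since Hoxb9 had means of 1.145 FPKM in Pc and 0.9519 FPKM in Epi. Fb and DC reached Hoxa10, Hoxc10 and Hoxd9, and Sch reached Hoxb9, with Hoxa5, Hoxc8 and Hoxd8 in the other clusters. The ends in Sch depend on the threshold too, since Hoxa10, Hoxc10 and Hoxd9 had Sch means of 1.518, 1.353 and 1.049 FPKM. Neg reached Hoxa11 at 1.02 and 1.02 FPKM and Hoxd10 at 1.30 and 1.12 FPKM, both close to the threshold. Hoxa10 in DC was also close to it, at 1.11 and 1.40 FPKM. Genes of paralog groups 9 to 13 held 41.52% of Hox FPKM in Sch, 22.86% in Fb and 20.23% in DC, against 2.872% in Pc and 2.33% in Epi. In Sch most of this was Hoxb9, at a mean of 40.61 FPKM of the 46.04 FPKM of these groups. Hoxa9, Hoxa10, Hoxc9, Hoxc10 and Hoxd9 had lower means in Sch than in Fb. Only 6 genes were detected in all 8 fractions: Hoxb3, Hoxb4, Hoxc4, Hoxc5, Hoxc6 and Hoxc8.

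Promoter windows of 300 bases are shown for 1 gene of each cluster, the member with the highest mean FPKM among those with a window in RefSeq (GRCm38.p6, 250 bases before to 50 after the start). They are given so that the start of 1 gene of each cluster can be seen. Means over the 16 libraries were 10.68 FPKM for Hoxa5, 3.264 FPKM for Hoxb4, 10.84 FPKM for Hoxc4 and 17.14 FPKM for Hoxd8. Hoxa5 and Hoxd8 are among the genes called between dermis and epidermis. The capitals mark the retinoic acid receptor core site AGGTCA, or TGACCT where it reads on the opposite strand, searched because retinoic acid sets Hox boundaries in the embryo. Hoxa5 is at chr6:52204538-52204837 on the minus strand, and the plus strand holds Hoxb4 at chr11:96318017-96318316, Hoxc4 at chr15:103034145-103034444 and Hoxd8 at chr2:74704365-74704664.
Hoxa5: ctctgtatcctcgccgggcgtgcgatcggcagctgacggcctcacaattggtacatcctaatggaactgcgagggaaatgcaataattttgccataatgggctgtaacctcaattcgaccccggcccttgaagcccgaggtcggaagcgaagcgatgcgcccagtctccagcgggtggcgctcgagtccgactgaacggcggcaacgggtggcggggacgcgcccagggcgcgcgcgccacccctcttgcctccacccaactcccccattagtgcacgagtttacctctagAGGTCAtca
Hoxb4: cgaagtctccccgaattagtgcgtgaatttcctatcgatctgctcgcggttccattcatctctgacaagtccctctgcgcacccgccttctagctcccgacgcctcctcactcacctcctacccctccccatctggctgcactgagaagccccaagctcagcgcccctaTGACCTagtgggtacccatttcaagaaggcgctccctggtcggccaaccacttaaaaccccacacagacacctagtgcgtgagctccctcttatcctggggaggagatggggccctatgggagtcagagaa
Hoxc4: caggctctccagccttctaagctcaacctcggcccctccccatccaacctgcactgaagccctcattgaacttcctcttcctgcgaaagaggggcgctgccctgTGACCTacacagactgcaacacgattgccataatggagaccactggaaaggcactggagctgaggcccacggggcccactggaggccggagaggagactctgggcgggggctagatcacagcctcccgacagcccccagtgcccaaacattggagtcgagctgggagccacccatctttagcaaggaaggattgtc
Hoxd8: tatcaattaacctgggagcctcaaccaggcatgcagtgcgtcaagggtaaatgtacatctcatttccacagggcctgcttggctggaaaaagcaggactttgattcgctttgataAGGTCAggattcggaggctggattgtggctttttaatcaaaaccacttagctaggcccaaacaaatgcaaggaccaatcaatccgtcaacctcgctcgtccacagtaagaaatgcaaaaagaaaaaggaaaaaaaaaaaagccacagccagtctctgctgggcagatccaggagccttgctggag
Each of the 4 windows held 1 copy. Among the 24 windows of 22 Hox genes in the table, 7 held AGGTCA on either strand, against 16.26% of all 32851 windows. The HOX-PBX site TGATTNAT was in 2 Hox windows, against 3.221% of all windows, the MEIS site TGACAG in 2, against 19.18%, the CDX site TTTATG in 5, against 11.85%, and the TATA box TATAAA in 4, against 13.62%. Hox windows had a median GC content of 57.67% and a median of 14.5 CpG, against 52.67% and 7 over all windows. A match is only a run of letters in this window.

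Dermis was set against epidermis by comparing the mean of DC and Fb with the mean of Pc and Epi. Of the 31 tested Hox genes, 14 were lower in dermis, where 11.3% of all rows were, and 10 were higher, where 14.3% of all rows were. The lower genes were mostly of HoxA, Hoxa2 to Hoxa7 among them, and of HoxB, with Hoxc13. The higher genes were the 5′ HoxA genes Hoxa9 and Hoxa10, the HoxC genes Hoxc6, Hoxc9 and Hoxc10, and the HoxD genes Hoxd1, Hoxd3, Hoxd4, Hoxd8 and Hoxd9. The median log2 difference was 0.11 over the tested Hox genes and 0.01 over all rows.

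Hoxa5, which patterns the cervical and upper thoracic spine and is needed for the lung and trachea, had 0.492 and 0.470 FPKM in DC and 1.87 and 1.73 FPKM in Fb, against 34.7 and 39.9 FPKM in Pc and 32.7 and 30.5 FPKM in Epi (log2 difference -4.12 ± 0.18 (SE), adjusted p = 7.59e-09). It was the leading HoxA gene of the epidermis, and the dermal and epidermal libraries did not overlap. Hoxa2, which gives neural crest of the hyoid arch its identity, had 0.695 and 0.733 FPKM in DC and 3.01 and 2.98 FPKM in Fb, against 18.7 and 16.0 FPKM in Pc and 16.8 and 16.0 FPKM in Epi (log2 difference -2.77 ± 0.15 (SE), adjusted p = 3.93e-08). Hoxa4, a cervical patterning gene, had 0.451 and 0 FPKM in DC and 0.495 and 0.475 FPKM in Fb, against 21.5 and 11.02 FPKM in Pc and 14.9 and 11.8 FPKM in Epi (log2 difference -3.52 ± 0.32 (SE), adjusted p = 2.52e-06). Every dermal library of both genes was below every epidermal one.

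Hoxa6, a neighbour that acts in the thoracic spine, had 0 and 0 FPKM in DC and 1.26 and 0.258 FPKM in Fb, against 16.7 and 10.8 FPKM in Pc and 9.94 and 13.2 FPKM in Epi (log2 difference -3.37 ± 0.34 (SE), adjusted p = 6e-06). Hoxa7, also a thoracic gene, had 2.46 and 0.562 FPKM in DC and 2.53 and 0.575 FPKM in Fb, against 14.5 and 8.85 FPKM in Pc and 11.8 and 10.7 FPKM in Epi (log2 difference -2.39 ± 0.32 (SE), adjusted p = 5.8e-05). No dermal library of either gene reached an epidermal one. Hoxa3, required for thymus and parathyroid, had 0.377 and 0.168 FPKM in DC and 0.911 and 0.804 FPKM in Fb, against 7.85 and 6.54 FPKM in Pc and 8.92 and 6.47 FPKM in Epi (log2 difference -2.45 ± 0.15 (SE), adjusted p = 1.23e-07).

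In HoxB, Hoxb6, used in limb and trunk mesoderm, had 0.307 and 0.353 FPKM in DC and 1.68 and 0.676 FPKM in Fb, against 14.4 and 9.33 FPKM in Pc and 15.1 and 7.18 FPKM in Epi (log2 difference -2.84 ± 0.29 (SE), adjusted p = 7.13e-06). Hoxb5, which acts in enteric neural crest, had 1.01 and 0.697 FPKM in DC and 1.85 and 1.41 FPKM in Fb, against 11.2 and 8.85 FPKM in Pc and 8.92 and 6.36 FPKM in Epi (log2 difference -2.14 ± 0.19 (SE), adjusted p = 2.44e-06). Epi replicate 2 was the lowest of the epidermal libraries for Hoxb6, yet above every dermal library. Hoxb2, Hoxb4, Hoxb7 and Hoxb8 were lower by log2 differences between -2.07 and -1.11. Of these, Hoxb2 was 1.31 to 7.55 FPKM in dermis and 5.82 to 10.3 FPKM in epidermis, which overlap, and it was not called without Fb replicate 2 (-0.90), Pc replicate 1 (-0.96) or Epi replicate 1 (-0.94).

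Of paralog groups 9 to 13, only Hoxc13 was detected in Pc and Epi. This gene drives hair keratin genes, and mice without it lack normal hair. It had 0 and 0.176 FPKM in DC and 0 and 0.113 FPKM in Fb, against 4.58 and 3.98 FPKM in Pc and 4.01 and 1.46 FPKM in Epi (log2 difference -2.01 ± 0.18 (SE), adjusted p = 2.49e-06). The 2 Epi libraries differed widely. No library outside Pc and Epi was above 0.176 FPKM.

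Hoxd8, a trunk gene in the middle of HoxD, was the strongest HoxD gene of the dermis, with 43.1 and 36.2 FPKM in DC and 29.9 and 32.8 FPKM in Fb, against 3.83 and 2.64 FPKM in Pc and 2.50 and 0.787 FPKM in Epi (log2 difference 3.48 ± 0.20 (SE), adjusted p = 5.93e-08). Hoxc10, a lumbar gene also used in hindlimb motor neurons, had 16.9 and 15.8 FPKM in DC and 26.3 and 23.2 FPKM in Fb, against 0.327 and 0.120 FPKM in Pc and 0.170 and 0.132 FPKM in Epi (log2 difference 4.15 ± 0.17 (SE), adjusted p = 6.1e-09). It gave the biggest positive difference of the 31, and all epidermal libraries were below 1 FPKM. Hoxc6, which marks brachial levels, was shared by both tissues but higher in dermis: 42.7 and 29.2 FPKM in DC and 42.3 and 19.8 FPKM in Fb, against 16.3 and 9.32 FPKM in Pc and 9.69 and 6.55 FPKM in Epi (log2 difference 1.59 ± 0.31 (SE), adjusted p = 0.00101).

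Hoxc9, which sets the thoracic level of the spinal cord, had 12.1 and 7.27 FPKM in DC and 13.1 and 7.88 FPKM in Fb, against 1.23 and 0.0452 FPKM in Pc and 0.174 and 0.149 FPKM in Epi (log2 difference 3.02 ± 0.28 (SE), adjusted p = 2.63e-06). Hoxd9, a lumbosacral and limb gene, had 15.8 and 11.4 FPKM in DC and 6.55 and 5.63 FPKM in Fb, against 0.287 and 0.108 FPKM in Pc and 0.0687 and 0.208 FPKM in Epi (log2 difference 3.12 ± 0.22 (SE), adjusted p = 3.4e-07). Hoxd3, which shapes the atlas, had 8.00 and 7.38 FPKM in DC and 9.66 and 6.60 FPKM in Fb, against 0.343 and 0.126 FPKM in Pc and 0.110 and 0.0834 FPKM in Epi (log2 difference 2.93 ± 0.18 (SE), adjusted p = 1.11e-07). In epidermis all 3 were below 1 FPKM in every library except Hoxc9 in Pc replicate 1.

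Hoxa10, a lumbar gene that is also required in the uterus, had 1.11 and 1.40 FPKM in DC and 6.17 and 8.27 FPKM in Fb, against 0.251 and 0 FPKM in Pc and 0.155 and 0.518 FPKM in Epi (log2 difference 1.82 ± 0.26 (SE), adjusted p = 0.000118). Hoxd4, a cervical gene, had 3.96 and 3.67 FPKM in DC and 4.78 and 2.24 FPKM in Fb, against 0.398 and 0.348 FPKM in Pc and 0.469 and 0.119 FPKM in Epi (log2 difference 1.78 ± 0.20 (SE), adjusted p = 1.65e-05). Hoxa9 and Hoxd1 were higher by 1.11 and 1.5, and Hoxa9 was not called without Fb replicate 1 (0.90). Hoxc8, the thoracic gene that leads HoxC in both tissues, had 38.6 and 40.2 FPKM in DC and 33.8 and 43.9 FPKM in Fb, against 25.2 and 31.5 FPKM in Pc and 17.9 and 13.8 FPKM in Epi. The groups of Hoxc8 did not overlap, but the difference stayed under the size limit (log2 difference 0.85 ± 0.20 (SE), adjusted p = 0.00365).

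**Figure D3:**
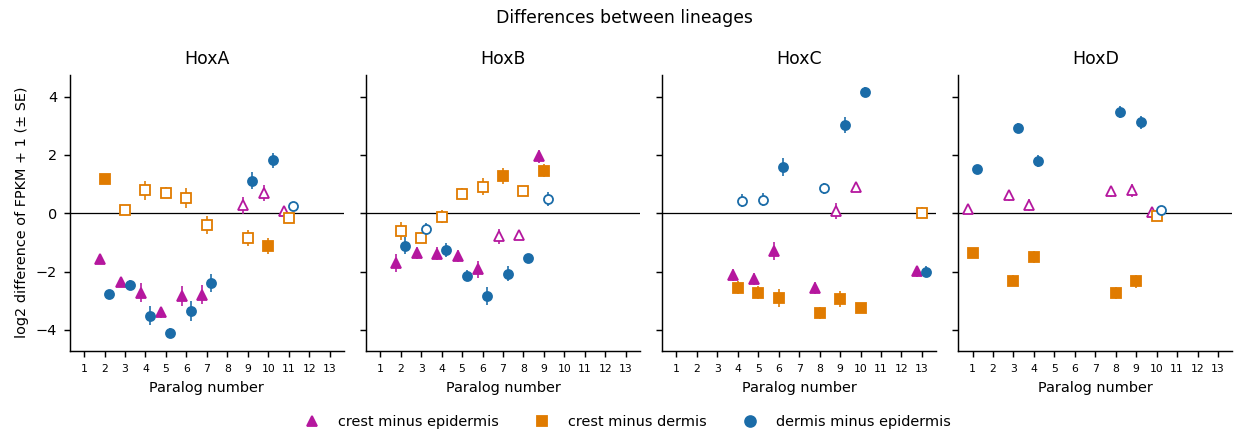
Log2 differences of log2(FPKM + 1) for the tested Hox genes described here between lineages: crest minus epidermis (triangles), crest minus dermis (squares) and dermis minus epidermis (circles), with bars of 1 SE and filled symbols for called genes. Dermis minus epidermis runs from -4.12 at Hoxa5 to 4.15 at Hoxc10.

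The neural crest fractions, taken as the mean of Mc and Sch, held little of the dermal HoxC and HoxD code. Against dermis, 12 Hox genes were lower, where 9.31% of all rows were, and 3 were higher, Hoxa2, Hoxb7 and Hoxb9, where 7.78% of all rows were. The lower genes were all 6 tested HoxC genes other than Hoxc13, 5 of HoxD and Hoxa10. Against epidermis, 17 were lower, where 8.34% of all rows were, and 1 was higher, Hoxb9, where 10.6% of all rows were. The 2 comparisons use the same crest libraries. The 3 genes higher against dermis became 5 without Sch replicate 2 or Mc replicate 2, and the 1 higher against epidermis became 2 without either Sch library or Mc replicate 2. Median log2 differences of the tested Hox genes were -0.40 against dermis and -1.36 against epidermis, beside 0.03 and 0.02 over all rows.

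Hoxc8 had 3.96 and 3.10 FPKM in Mc and 2.87 and 1.42 FPKM in Sch, against 33.8 to 43.9 FPKM in dermis and 13.8 to 31.5 FPKM in epidermis (log2 difference -3.43 ± 0.20 (SE), adjusted p = 1.85e-07 against dermis; log2 difference -2.57 ± 0.20 (SE), adjusted p = 9.88e-07 against epidermis). Both crest fractions were below all libraries of both other lineages. Hoxc6 had 3.89 and 1.72 FPKM in Mc and 5.43 and 3.49 FPKM in Sch, against 19.8 to 42.7 FPKM in dermis (log2 difference -2.90 ± 0.31 (SE), adjusted p = 1.61e-05). Hoxc10 had 1.60 and 0.731 FPKM in Mc and 1.76 and 0.943 FPKM in Sch, against 15.8 to 26.3 FPKM in dermis (log2 difference -3.25 ± 0.17 (SE), adjusted p = 1.08e-07). Hoxc10 was thus near 1 FPKM in both crest fractions.

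Hoxc4 and Hoxc5, cervical genes at the 3′ end of HoxC, were low in the crest against both tissues. Hoxc4 had 2.72 and 1.12 FPKM in Mc and 1.99 and 3.38 FPKM in Sch, against 18.2 and 16.5 FPKM in DC and 20.4 and 16.0 FPKM in Fb (log2 difference -2.55 ± 0.22 (SE), adjusted p = 2.94e-06) and 16.3 and 17.3 FPKM in Pc and 12.0 and 8.01 FPKM in Epi (log2 difference -2.12 ± 0.22 (SE), adjusted p = 9.68e-06). Hoxc5 had 1.96 and 1.22 FPKM in Mc and 2.95 and 1.45 FPKM in Sch, against 10.2 and 12.9 FPKM in DC and 29.0 and 25.1 FPKM in Fb (log2 difference -2.73 ± 0.21 (SE), adjusted p = 1.58e-06) and 16.2 and 16.7 FPKM in Pc and 9.72 and 9.33 FPKM in Epi (log2 difference -2.26 ± 0.21 (SE), adjusted p = 4.96e-06). No crest library of either gene overlapped with a library of the other lineages.

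Hoxd8 had 2.33 and 1.92 FPKM in Mc and 8.11 and 8.79 FPKM in Sch, against 29.9 to 43.1 FPKM in dermis (log2 difference -2.74 ± 0.20 (SE), adjusted p = 9.01e-07). Hoxc9 had 0.925 and 0.0774 FPKM in Mc and 0.532 and 0.194 FPKM in Sch, against 7.27 to 13.1 FPKM in dermis (log2 difference -2.95 ± 0.28 (SE), adjusted p = 6.03e-06). Hoxd9 had 1.60 and 0.514 FPKM in Mc and 1.17 and 0.927 FPKM in Sch, against 5.63 to 15.8 FPKM in dermis (log2 difference -2.33 ± 0.22 (SE), adjusted p = 7.3e-06). Of these 3 genes, Hoxd8 kept the highest level in the crest, in Sch. Hoxa10, Hoxd1, Hoxd3 and Hoxd4 were lower by -2.32 to -1.13, and Hoxa10 was not called without Sch replicate 1 (-0.81) or with Sch alone for the crest (-0.90).

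Of the HoxA genes that lead the epidermis, Hoxa5 had 3.19 and 2.40 FPKM in Mc and 2.60 and 1.40 FPKM in Sch, against 30.5 to 39.9 FPKM in epidermis (log2 difference -3.40 ± 0.18 (SE), adjusted p = 6.07e-08). Hoxa4 had 4.24 and 1.21 FPKM in Mc and 1.22 and 0.111 FPKM in Sch, against 11.02 to 21.5 FPKM in epidermis (log2 difference -2.73 ± 0.32 (SE), adjusted p = 2.94e-05). Hoxa6 had 2.29 and 0.320 FPKM in Mc and 1.19 and 0.3005 FPKM in Sch, against 9.94 to 16.7 FPKM in epidermis (log2 difference -2.84 ± 0.34 (SE), adjusted p = 3.42e-05). In each of these genes the crest libraries lay below all epidermal ones. Hoxa7 had 1.18 and 1.497 FPKM in Mc and 0.464 and 0.252 FPKM in Sch, against 8.85 to 14.5 FPKM in epidermis (log2 difference -2.79 ± 0.32 (SE), adjusted p = 2.25e-05).

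Hoxa2 divided the crest. It had 1.93 and 2.14 FPKM in Mc and 11.4 and 9.93 FPKM in Sch, against 0.695 to 3.01 FPKM in dermis and 16.0 to 18.7 FPKM in epidermis. The averaged crest was above dermis (log2 difference 1.18 ± 0.15 (SE), adjusted p = 6.78e-05) and below epidermis (log2 difference -1.59 ± 0.15 (SE), adjusted p = 4.87e-06). With Mc alone for the crest, the difference from dermis was 0.22 and not called. With Sch alone, the difference from epidermis was -0.62 and not called. Hoxb7, an axial gene of the thorax, had 2.51 and 1.66 FPKM in Mc and 10.0 and 7.46 FPKM in Sch, against 1.22 and 1.11 FPKM in DC and 1.91 and 0.829 FPKM in Fb (log2 difference 1.28 ± 0.26 (SE), adjusted p = 0.00231); with Mc alone the difference was 0.45 and not called.

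Within the crest, Mc and Sch differed chiefly in HoxB. In Mc 7 Hox genes were lower than in Sch, where 7.31% of all rows were, and none was higher, where 4.53% of all rows were. They were Hoxa2, Hoxb5, Hoxb6, Hoxb7, Hoxb8, Hoxb9 and Hoxd8. The median log2 difference was -0.28 over the tested Hox genes and -0.01 over all rows. At an unadjusted p under 0.05, limma gave 8 lower, where 14.1% of all rows were, and 1 higher, where 11.6% of all rows were, and without Mc replicate 2 it called 1 higher, Hoxa4.

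Hoxb9, a gene of the thoracic level, stood furthest apart. It had 0.373 and 0.609 FPKM in Mc, against 35.7 and 45.5 FPKM in Sch (log2 difference -4.80 ± 0.33 (SE), adjusted p = 1.01e-06). The 2 Sch libraries were far above all Mc libraries, and Hoxb9 alone made up most of the HoxB sum of Sch. Every other fraction was also low: 1.54 and 1.89 FPKM in Neg, 0.680 and 2.48 FPKM in DC and 2.49 and 2.21 FPKM in Fb, and 0.703 and 1.59 FPKM in Pc and 1.07 and 0.834 FPKM in Epi. DCSch, whose label reads as a mixture with Schwann cells, lay between, at 11.6 and 14.8 FPKM. Sch was set against each of the 6 other fractions after its values had been seen, and the log2 differences were between 3.63 (Fb) and 4.80 (Mc), with a highest adjusted p of 7.51e-06. The share of all rows higher in Sch was 7.16% against Neg, 10.3% against DC, 6.72% against Fb, 11.9% against Pc and 12.5% against Epi. The averaged crest was above dermis (log2 difference 1.46 ± 0.23 (SE), adjusted p = 0.000388) and epidermis (log2 difference 1.95 ± 0.23 (SE), adjusted p = 3.19e-05), while with Mc alone it was below both, by -0.94 and -0.44.

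Hoxa2 had 1.93 and 2.14 FPKM in Mc, against 11.4 and 9.93 FPKM in Sch (log2 difference -1.94 ± 0.21 (SE), adjusted p = 4.14e-05). Hoxb7 had 2.51 and 1.66 FPKM in Mc, against 10.0 and 7.46 FPKM in Sch (log2 difference -1.66 ± 0.37 (SE), adjusted p = 0.00839). Hoxd8 had 2.33 and 1.92 FPKM in Mc, against 8.11 and 8.79 FPKM in Sch (log2 difference -1.60 ± 0.28 (SE), adjusted p = 0.00173). In these 3 genes both Sch libraries were above both Mc libraries. Hoxb5 had 1.31 and 0.923 FPKM in Mc, against 6.20 and 3.64 FPKM in Sch (log2 difference -1.46 ± 0.27 (SE), adjusted p = 0.00275). Hoxb8, a thoracic gene known from its grooming phenotype in mutant mice, had 0.418 and 0.335 FPKM in Mc, against 2.80 and 1.86 FPKM in Sch (log2 difference -1.26 ± 0.21 (SE), adjusted p = 0.00108). Hoxb6 had 1.64 and 0.420 FPKM in Mc, against 5.22 and 3.29 FPKM in Sch (log2 difference -1.42 ± 0.41 (SE), adjusted p = 0.0384). Hoxb6 was not called without either Sch library or Mc replicate 2 (-1.68 to -0.97), and Hoxb7 not without Sch replicate 1 (-1.47) or Mc replicate 2 (-1.46). With the replicate number as a block, Hoxa4 was also called, higher in Mc (log2 difference 1.11, adjusted p = 0.00779): it had 4.24 and 1.21 FPKM in Mc, against 1.22 and 0.111 FPKM in Sch.

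**Figure D4:**
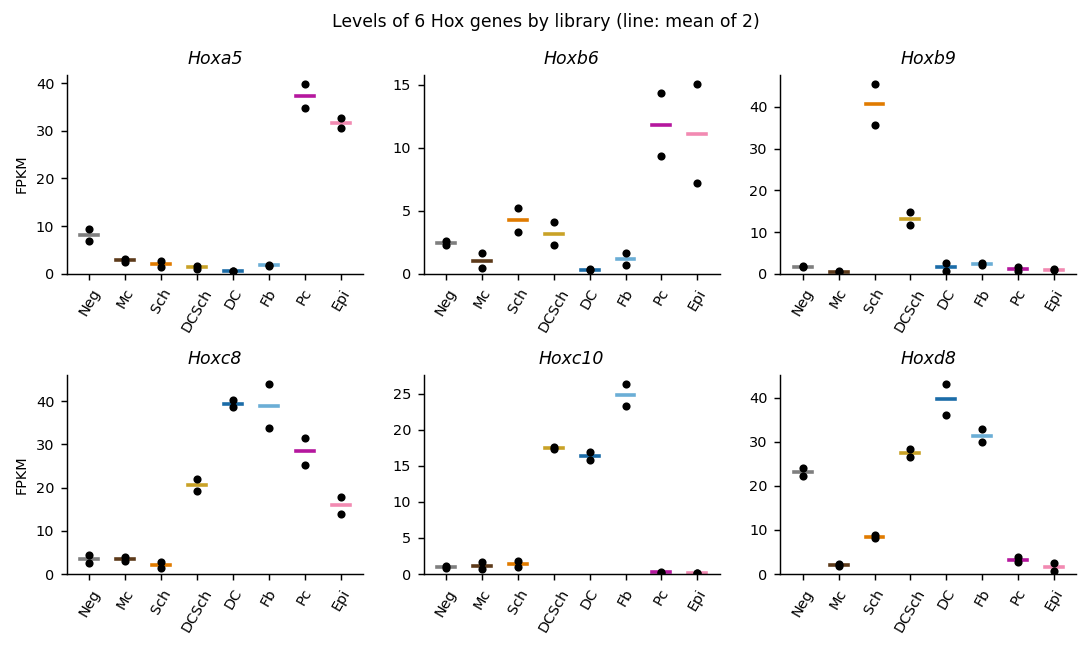
FPKM of Hoxa5, Hoxb6, Hoxb9, Hoxc8, Hoxc10 and Hoxd8 in the 8 fractions; short lines are means of 2 libraries and points are the libraries. Hoxa5 and Hoxb6 are highest in Pc and Epi, Hoxb9 in Sch, Hoxc8 and Hoxd8 in DC and Fb, and Hoxc10 in Fb with DCSch and DC next.

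The mean of DCSch lay strictly between the means of DC and Sch for 22 of the 31 tested Hox genes, 70.97%, beside 61.08% of all tested rows. The exceptions were Hoxa9, Hoxa10, Hoxa11 (listed at 0 in DCSch and DC), Hoxb2, Hoxb3, Hoxc5, Hoxc10, Hoxc13 and Hoxd10. Hoxc10 and Hoxc5 were close to the DC mean, and Hoxa10 stood above both parts, at 3.47 and 4.59 FPKM in DCSch, with 1.11 and 1.40 FPKM in DC and 0.493 and 2.54 FPKM in Sch. The Schwann genes summed to 747.3 and 789.6 FPKM and the condensate genes to 472.0 and 512.9 FPKM in DCSch.

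Within the dermis, the condensate is the cluster of fibroblasts beneath the placode that becomes the dermal papilla. In DC 4 Hox genes were lower than in Fb, where 9.20% of all rows were, and 1 was higher, where 6.13% of all rows were. The share of Hox genes called, 5 of 31, was 16.1%, against 15.3% of all rows, so the Hox genes were called about as often as other rows. With a pseudocount of 0.1 there were 9 lower and 0 higher, and in a fit on the DC and Fb libraries only, 1 lower and 0 higher. The median log2 difference was -0.30 over the tested Hox genes and 0 over all rows, and 24 of the 31 were negative.

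Hoxa10 had 1.11 and 1.40 FPKM in DC, against 6.17 and 8.27 FPKM in Fb (log2 difference -1.85 ± 0.37 (SE), adjusted p = 0.00341). It was the 1 difference between DC and Fb called in every alternative run. Hoxa9, a neighbour of Hoxa10 active at thoracic and lumbar levels, had 0.986 and 0.475 FPKM in DC, against 5.57 and 2.67 FPKM in Fb (log2 difference -1.52 ± 0.40 (SE), adjusted p = 0.0181). Hoxa2 had 0.695 and 0.733 FPKM in DC, against 3.01 and 2.98 FPKM in Fb (log2 difference -1.22 ± 0.21 (SE), adjusted p = 0.00127). Both DC libraries were below both Fb libraries for these 3 genes.

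Hoxc5 had 10.2 and 12.9 FPKM in DC, against 29.0 and 25.1 FPKM in Fb (log2 difference -1.16 ± 0.30 (SE), adjusted p = 0.0165). Hoxd9, the gene that was higher, had 15.8 and 11.4 FPKM in DC, against 6.55 and 5.63 FPKM in Fb (log2 difference 1.03 ± 0.32 (SE), adjusted p = 0.0371). Hoxc5 was not called without Fb replicate 1 (-1.07) or DC replicate 1 (-1.01), and Hoxa9 not without Fb replicate 1 (-1.10) or DC replicate 2 (-1.31). Hoxd9 was not called without either Fb library (1.12 and 0.94) or DC replicate 1 (0.81). Without Fb replicate 1, 2 genes were lower and 0 higher. With the replicate block, Hoxb2 was also lower in DC (log2 difference -1.28, adjusted p = 0.000131). The strongest dermal genes, Hoxc8, Hoxc6 and Hoxd8, were not called between DC and Fb. Hoxc8 had 38.6 and 40.2 FPKM in DC, against 33.8 and 43.9 FPKM in Fb, and the ranges overlapped. The Schwann markers summed to 481.7 and 299.8 FPKM in DC, against 58.81 and 46.4 FPKM in Fb. Their part in these differences was not tested.

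Within the epidermis, the placode is the thickening that starts the hair follicle. Between Pc and Epi, 0 of 31 Hox genes were called in either direction, where limma called 0.155% of all rows as higher and 1.37% as lower. At an unadjusted p under 0.05, 5 Hox genes passed, all higher in Pc, where 3.51% of all rows were: Hoxc4, Hoxc5, Hoxc8, Hoxc13 and Hoxd8. The differences of the 31 genes lay between -0.24 and 0.80, with standard errors up to 0.48. The biggest was at Hoxc8, which had 25.2 and 31.5 FPKM in Pc, against 17.9 and 13.8 FPKM in Epi (log2 difference 0.80 ± 0.28 (SE), adjusted p = 0.303). The groups did not overlap for Hoxc8, and the standard error leaves changes of this size undecided. Without Epi replicate 1, Hoxc13 was called higher in Pc, so that 1 gene passed. Hoxc13 had 4.58 and 3.98 FPKM in Pc, against 4.01 and 1.46 FPKM in Epi.

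Whether the step from interfollicular to follicle fraction differs between dermis and epidermis was asked with the interaction (DC minus Fb) minus (Pc minus Epi). It was called for 3 Hox genes, all lower, where 8.19% of all rows were, and for none higher, where 5.89% of all rows were. The 3 genes were 9.68% of those tested, so Hox genes were called lower about as often as other rows. Hoxc5 gave log2 difference -1.89 ± 0.43 (SE), adjusted p = 0.0103. Hoxc5 was lower in DC than in Fb and was 16.2 and 16.7 FPKM in Pc, against 9.72 and 9.33 FPKM in Epi. Hoxa2 gave log2 difference -1.29 ± 0.30 (SE), adjusted p = 0.0117, and Hoxa9 gave log2 difference -1.87 ± 0.57 (SE), adjusted p = 0.0468. Without Pc replicate 1, 1 gene was called, Hoxc5, and Hoxa2 was not (-1.19). Hoxa9 was not called in 7 of the 8 fits that each left out 1 library of these fractions (-2.08 to -1.45), and had 0.632 and 0.396 FPKM in Pc, against 0.109 and 0.272 FPKM in Epi. With the replicate block 6 genes were called, adding Hoxa5 (-1.15), Hoxa10 (-1.61) and Hoxb2 (-1.35).

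**Figure D5:**
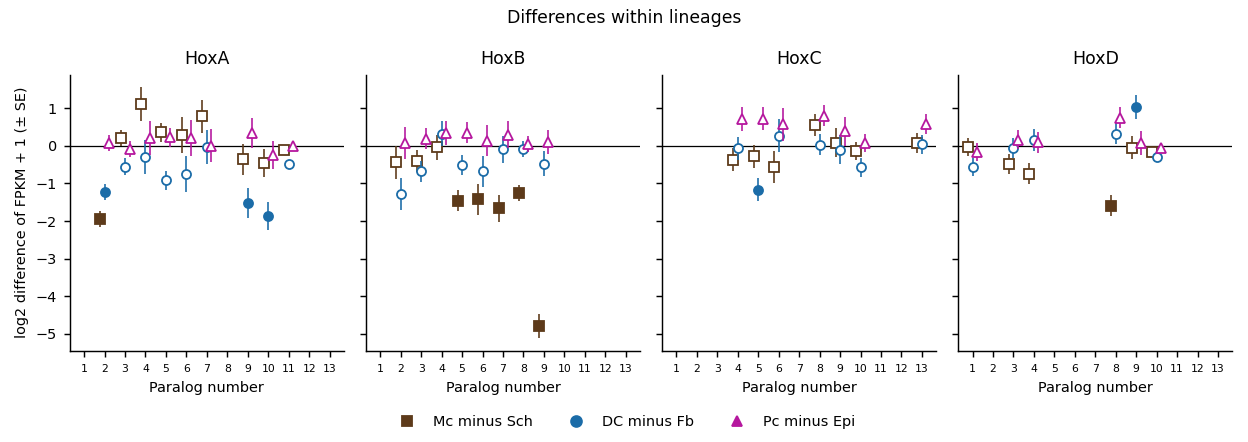
Log2 differences of log2(FPKM + 1) for the tested Hox genes described here within lineages: Mc minus Sch (squares), DC minus Fb (circles) and Pc minus Epi (triangles), with bars of 1 SE and filled symbols for called genes. Pc minus Epi stays between -0.24 and 0.80 with no filled symbol, and Hoxb9 falls to -4.80 in Mc minus Sch.

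The remainder Neg, a mixture by its markers, held detected genes of all 4 clusters. All 10 fibroblast genes were at 1 FPKM or more in Neg, summing to 928 and 1069 FPKM, against 9695 and 8683 FPKM in Fb. The 3 leukocyte and mast cell genes summed to 681.7 and 978.2 FPKM in Neg. Against Fb, 7 Hox genes were lower, where 7.71% of all rows were, and 3 were higher, where 7.77% of all rows were. The lower genes were 6 of HoxC and Hoxd1, and the higher ones were Hoxa3, Hoxa5 and Hoxa6. The median log2 difference was 0.05 over the tested Hox genes and 0 over all rows.

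Hoxc8 had 2.66 and 4.47 FPKM in Neg, against 33.8 and 43.9 FPKM in Fb (log2 difference -3.14 ± 0.28 (SE), adjusted p = 8.06e-06). Hoxc10 had 0.854 and 1.08 FPKM in Neg, against 26.3 and 23.2 FPKM in Fb (log2 difference -3.71 ± 0.25 (SE), adjusted p = 9.58e-07). Hoxc9 had 0.340 and 0.305 FPKM in Neg, against 13.1 and 7.88 FPKM in Fb (log2 difference -3.08 ± 0.39 (SE), adjusted p = 0.000116). These genes of the middle and 5′ end of HoxC did not overlap between Neg and Fb. Hoxc5 had 7.08 and 7.11 FPKM in Neg, against 29.0 and 25.1 FPKM in Fb (log2 difference -1.79 ± 0.30 (SE), adjusted p = 0.001). Hoxc6 had 8.07 and 7.83 FPKM in Neg, against 42.3 and 19.8 FPKM in Fb (log2 difference -1.75 ± 0.43 (SE), adjusted p = 0.0121).

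Hoxa5 had 6.85 and 9.31 FPKM in Neg, against 1.87 and 1.73 FPKM in Fb (log2 difference 1.68 ± 0.25 (SE), adjusted p = 0.000402). Hoxa6 had 8.66 and 3.79 FPKM in Neg, against 1.26 and 0.258 FPKM in Fb (log2 difference 2.01 ± 0.48 (SE), adjusted p = 0.00971). Hoxa3 had 3.82 and 2.41 FPKM in Neg, against 0.911 and 0.804 FPKM in Fb (log2 difference 1.13 ± 0.22 (SE), adjusted p = 0.00259). Hoxa9 was not called, at 4.61 and 1.23 FPKM in Neg, against 5.57 and 2.67 FPKM in Fb. Hoxc4 and Hoxd1 were lower by -1.16 and -1.46. Hoxa3, Hoxa6, Hoxc4 and Hoxc6 were each lost when 1 of the 4 libraries was left out: Hoxa3 without Neg replicate 1 (0.88), Hoxa6 without Neg replicate 1 (1.5) or Fb replicate 2 (1.59), Hoxc4 without Neg replicate 2 (-0.98) or Fb replicate 1 (-1), and Hoxc6 without either Neg library (-1.77 and -1.73) or Fb replicate 1 (-1.22). Without Neg replicate 1, 1 gene was higher, Hoxa5. With the replicate block, Hoxa7 was also higher in Neg (log2 difference 1.04, adjusted p = 0.0171). Hoxa10 was not called, at 6.48 and 10.7 FPKM in Neg, against 6.17 and 8.27 FPKM in Fb. Neg holds blood, vessel and muscle cells by its markers, and fibroblast, leukocyte and mast cell genes as well. The part of each in these values was not tested.

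Genes that act with or on Hox genes were read from lists chosen with earlier results of these data known. The TALE cofactors (Pbx, Meis and Pknox) bind DNA together with HOX proteins, and all 9 were tested. In dermis 2 were higher than in epidermis, where 14.3% of all rows were, and 1 was lower, where 11.3% of all rows were. The median log2 difference was -0.18 over the 9 and 0.01 over all rows. Meis1 had 16.3 and 23.3 FPKM in DC and 36.1 and 38.8 FPKM in Fb, against 6.60 and 6.10 FPKM in Pc and 5.42 and 5.57 FPKM in Epi (log2 difference 2.02 ± 0.17 (SE), adjusted p = 1.35e-06). Meis3 was also higher in dermis (log2 difference 1.97 ± 0.31 (SE), adjusted p = 0.000241) and Pbx3 lower (log2 difference -1.22 ± 0.13 (SE), adjusted p = 1.2e-05). Against dermis the crest had Meis1 (log2 difference -2.26 ± 0.17 (SE), adjusted p = 1.2e-06) and Meis2 (log2 difference -1.88 ± 0.19 (SE), adjusted p = 1.34e-05) lower, where 9.31% of all rows were. Pknox2 was higher (log2 difference 1.94 ± 0.20 (SE), adjusted p = 1.28e-05), where 7.78% of all rows were. Against epidermis 2 were lower, where 8.34% of all rows were, and 2 were higher, where 10.6% of all rows were. Of those, Meis3 was not called without Sch replicate 1, Mc replicate 1, Pc replicate 2 or Epi replicate 2 (0.85 to 1.04). Meis2 separated condensate from fibroblasts, at 4.08 and 5.80 FPKM in DC, against 24.5 and 32.4 FPKM in Fb (log2 difference -2.31 ± 0.27 (SE), adjusted p = 8.48e-05), while Meis3 was higher in DC (log2 difference 1.44 ± 0.44 (SE), adjusted p = 0.0367). Meis3 was not called in DC without Fb replicate 2 (1.01) or DC replicate 1 (1.05). Pbx2 and Pbx4 were lower in Mc than in Sch by -1.04 and -1.34, where 7.31% of all rows were. Pbx2 was not called without Mc replicate 2 (-0.92). In Neg against Fb 1 was higher, where 7.77% of all rows were, and 3 were lower, where 7.71% of all rows were. Of these, Meis1 was not called without Neg replicate 1 (-0.92). Between Pc and Epi none was called, where 1.52% of all rows were in either direction.

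Polycomb and trithorax proteins keep Hox genes silent or active, and 22 of 24 list entries were tested. The entries not tested, Kmt2a and Kmt2b, are other symbols of Mll1 and Wbp7, which were tested. In dermis 2 of the list were lower than in epidermis, where 11.3% of all rows were. In the other direction 1 was higher, where 14.3% of all rows were. Few were called: Cbx2 (log2 difference -1.36 ± 0.21 (SE), adjusted p = 0.000236) and Cbx7 (log2 difference -1.04 ± 0.14 (SE), adjusted p = 5.31e-05) were lower and Kdm6b, a demethylase of the Polycomb mark, was higher (log2 difference 1.27 ± 0.34 (SE), adjusted p = 0.00822) in dermis than in epidermis. Eed and Phf19 were lower in DC than in Fb by -1.13 and -2.07, where 9.20% of all rows were. Cbx7 was not called between dermis and epidermis without Pc replicate 1 (-0.99) or Epi replicate 1 (-0.94), nor Kdm6b without Fb replicate 1 (0.92). In crest against epidermis 1 was lower, Cbx7, where 8.34% of all rows were. It was not called without Mc replicate 2, Pc replicate 1 or Epi replicate 1 (-0.96 to -0.90). None was called in crest against dermis, in Mc against Sch, in Neg against Fb or in Pc against Epi. In either direction, 17.1%, 11.8%, 15.5% and 1.52% of all rows were called there.

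Retinoic acid controls Hox boundaries, and Cdx proteins act beside it. Of this list of 14, 9 were tested. In dermis 5 were higher than in epidermis, where 14.3% of all rows were, and none was lower, where 11.3% of all rows were. The median log2 difference was 1.02 over the 9 and 0.01 over all rows. Cyp26b1, which degrades retinoic acid, had 206 and 168 FPKM in DC and 13.6 and 10.0 FPKM in Fb, against 0.735 and 0.364 FPKM in Pc and 0.334 and 0.350 FPKM in Epi (log2 difference 5.08 ± 0.16 (SE), adjusted p = 1.35e-09). The same gene was higher in DC than in Fb (log2 difference 3.89 ± 0.22 (SE), adjusted p = 4.79e-07). Crabp1, a carrier of retinoic acid, had 3974 and 2290.2 FPKM in DC and 3483 and 1985 FPKM in Fb, against 46.7 and 27.1 FPKM in Pc and 35.9 and 50.3 FPKM in Epi (log2 difference 6.14 ± 0.30 (SE), adjusted p = 1.81e-08). Crabp2 and Gdf11 were higher in dermis by 3.88 and 2.1, and Aldh1a2, which makes retinoic acid, by 1.02 while listed at 0 in all epidermal libraries; it was not called without Fb replicate 2 (0.96) or DC replicate 1 (0.61). Counts in the other comparisons were 1 higher and 3 lower in Mc against Sch, where 4.53% and 7.31% of all rows were. They were 1 and 2 in crest against dermis, beside 7.78% and 9.31% of all rows. In crest against epidermis they were 5 and 1, beside 10.6% and 8.34%, and in Neg against Fb 0 and 5, beside 7.77% and 7.71%. Of the 5 lower in Neg, 3 were not called without Fb replicate 1: Aldh1a3 (-0.85), Crabp2 (-1.21, adjusted p = 0.0635) and Rarg (-1.21, adjusted p = 0.186) by limma. Aldh1a3 (-0.98) and Rarg (-1.2) were also not called without Neg replicate 2. Rarg, the gene lower in crest than in epidermis, was not called without Sch replicate 2, Mc replicate 2, Pc replicate 1 or Epi replicate 1 (-1.07 to -0.98). In Mc, Rarb, a retinoic acid receptor, was higher than in Sch (log2 difference 2.60 ± 0.19 (SE), adjusted p = 1.93e-06) and Aldh1a3 was lower (log2 difference -3.36 ± 0.26 (SE), adjusted p = 2.94e-06).

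Within and beside the clusters, a few other genes were called too. Of 8 antisense, intergenic or microRNA genes found of 19 looked for, 1 was tested. This is Mira, an RNA of the HoxA cluster on chromosome 6 from 52214492 to 52215288. It had 9.64 and 9.55 FPKM in DC and 6.82 and 12.6 FPKM in Fb, against 66.0 and 107 FPKM in Pc and 71.5 and 82.9 FPKM in Epi (log2 difference -2.96 ± 0.32 (SE), adjusted p = 1.08e-05). Mira was highest in Pc and Epi, as Hoxa5, Hoxa6 and Hoxa7 were, and in crest it was lower than in epidermis as well (log2 difference -4.01 ± 0.32 (SE), adjusted p = 1.25e-06). Skap2, the gene on the 3′ flank of HoxA from 51859165 to 52012549, had 7.23 and 6.86 FPKM in DC and 3.64 and 5.61 FPKM in Fb, against 95.2 and 112 FPKM in Pc and 91.3 and 88.2 FPKM in Epi (log2 difference -3.86 ± 0.17 (SE), adjusted p = 8.61e-09). Of the 10 tested flank genes, Skap2 was the 1 called between dermis and epidermis, where 25.6% of all rows were. Calcoco1, near HoxC, was higher and Cbx5 lower in DC than in Fb by 1.79 and -1.53. Of all rows, 6.13% were higher and 9.20% lower in DC. Cbx5 was not called without Fb replicate 2 (-1.09) or DC replicate 1 (-1.12). Evx1 and Evx2, on the 5′ flanks of HoxA and HoxD, were listed at 0 in all libraries, and so were the 6 microRNA rows.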

How the data were processed

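RNA-seq of 16 libraries, 2 for each of 8 sorted fractions of embryonic day 14.5 mouse skin, was analysed from the authors' table of expression per gene. The deposited values are FPKM, and per the submitters' processing notes TopHat2 2.0.3, Bowtie2, Cufflinks 2.1.1 and the mm10 build were used, with no role or setting given. Per the labels' protocols, RNA of 6 ng was amplified with NuGEN kits. Nothing used here states the sort markers, strand or depth, and low values showed no common step from which reads could be recovered, so no counting interval is given.

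Differences were tested with limma 3.58.1 in R 4.3.3 on log2(FPKM + 1), with 1 mean per fraction over all 16 libraries, trended robust variances and Benjamini-Hochberg adjustment over the 14171 of 23235 rows with 1 FPKM or more in at least 2 libraries. Crest is the mean of Mc and Sch, dermis of DC and Fb, epidermis of Pc and Epi. Members and lists were chosen with earlier results of these data known. Values are given per library for called members, up to 8 per direction by mean FPKM in the higher group, and for list genes only where called. The replicate numbers of the labels pair the libraries: deviations from fraction means correlated in all 28 fraction pairs, from 0.148 to 0.656, and the replicate number as a block is an alternative. The fit was tested on simulated data. Promoter windows came from RefSeq (GRCm38.p6). The results of some genes are not reported here.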

Additional observations from a re-analysis of the deposited data

Results flagged for a closer look

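The difference between condensate and fibroblast fractions differed from the difference between placode and epidermis fractions for 3 Hox genes, by limma's test of the interaction (DC minus Fb) minus (Pc minus Epi). That is 9.68% of the 31 tested, beside 8.19% of all rows called in the same direction, a share near that of other rows. Hoxa2 had a value of -1.29 (adjusted p = 0.0117), Hoxa9 of -1.87 (adjusted p = 0.0468) and Hoxc5 of -1.89 (adjusted p = 0.0103). Hoxa9 was not called in 7 of the 8 fits that each left out 1 library (-2.08 to -1.45), nor Hoxa2 without Pc replicate 1 (-1.19). All 3 were lower in DC than in Fb. Hoxc5 was at 16.2 and 16.7 FPKM in Pc, against 9.72 and 9.33 FPKM in Epi, but was not called between them. Hoxa2 and Hoxa9 differed by 0.07 and 0.35 between Pc and Epi and were not called there either. Hoxa9 was below 1 FPKM in all 4 epidermal libraries.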

How the results depend on the processing

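Of the 24 calls between dermis and epidermis, 22 held in every alternative that tested the gene, as did 11 of 15 between crest and dermis, 14 of 18 between crest and epidermis, 5 of 7 between Mc and Sch, 5 of 10 between Neg and Fb, 1 of 5 between DC and Fb and 1 of 3 interactions. Over 82 called Hox results and 1278 alternatives, 1222 kept call and direction, 54 lost the call and 2 reversed; over 65 list results and 975 alternatives, 889, 85 and 1. The causes were not tested.

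The reversals came with Mc alone for the crest, chosen after seeing the data: Hoxb9 was -0.94 against dermis and -0.44 against epidermis, and Aldh1a3 -0.24 against dermis. Higher calls against dermis were then 1 with Mc alone and 6 with Sch alone, and against epidermis 0 and 2. With a pseudocount of 0.1 they were 7 and 5, and DC against Fb had 0 higher and 9 lower. A fit on the compared libraries only gave 0 higher and 1 lower for DC against Fb, and 1 higher and 4 lower for Neg against Fb. With the replicate block, Mc against Sch had 1 higher and the interaction 6 lower; beyond these, Hoxb2 in DC against Fb and Hoxa7 in Neg against Fb, the block changed no other call. Detection at 0.5 FPKM gave 19 genes in Mc, and detection at 2 FPKM gave 2 in Mc and 8 in Sch.

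Leaving out 1 library, the ranges of higher and lower calls were 0 to 1 and 2 to 5 for DC against Fb, 0 to 1 and 0 for Pc against Epi, 0 to 1 and 5 to 7 for Mc against Sch, 3 to 5 and 11 to 13 for crest against dermis, 1 to 2 and 17 for crest against epidermis, and 1 to 4 and 5 to 8 for Neg against Fb. For the interaction 1 to 3 were lower, and Mc detected 12 to 19 genes. Rescaling libraries to 1 total moved the median of all rows by 0.16 for dermis against epidermis, where 11 Hox genes were then higher and 13 lower, by 0.19 for crest against epidermis, by -0.14 for Mc against Sch and by -0.20 for Neg against Fb, where 2 were higher and 9 lower. With 2 libraries per fraction and unknown depth, small differences and levels near 1 FPKM are not resolved.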

Other observations

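Over the 31 tested Hox genes, replicate 1 was above replicate 2 by a median log2 difference of 0.21, beside 0.01 over all tested rows. In all 8 fractions 5 Hox genes were higher in replicate 1, 16.1% of those tested, beside 12.6% of all rows, a share near that of other rows. No difference between replicate numbers was tested for single genes. These 5 were chosen after their values were seen and include Hoxb2, which differed by 0.65, Hoxc6 by 0.62 and Hoxa4 by 0.60. The labels do not say what the replicate numbers stand for.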
